A study of Drosophila melanogaster with 11 samples.

Results

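The genes described here are 10 genes of the piRNA pathway and of the germline: aub, piwi, AGO3, zuc, armi, spn-E, krimp, squ, vas and Ote. They were found by symbol, current or older, in the platform annotation of the array, and they are 10 of the 11981 genes that a probe set names alone. aub and Ote were picked with their difference between paraquat-fed and other flies already known, and the rest were added as genes of the same pathway or tissue. Their differences with paraquat are therefore given as a description, without a test.

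Transcripts were measured in heads of adult female w1118 flies, 20 heads pooled per array, on 3' expression arrays. Paraquat is a herbicide that generates superoxide inside cells, and nicotine acts on acetylcholine receptors. Flies of the paraquat plus nicotine group (n = 3 arrays) were kept on food with nicotine at 0.1 mg/ml, alone for 10 days and then together with 5 mM paraquat for 6 days. Flies of the paraquat group (n = 2) ate 5 mM paraquat over those last 6 days and no nicotine, flies of the nicotine group (n = 3) ate nicotine for all 16 days and no paraquat, and control flies (n = 3) ate plain food. A paraquat replicate with degraded RNA was left out by the submitters, so the paraquat arrays are numbered 2 and 3. All groups share the w1118 strain, the female sex and the time of dissection, and a pool of heads holds brain, eye, fat body and other tissues together.

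piRNAs are small RNAs that guide Argonaute proteins of the Piwi clade to transposon transcripts, mainly in the gonads. In fly ovaries, Aub and AGO3 cut transposon and piRNA precursor transcripts in turn in the nuage, a structure around germ cell nuclei, while Piwi acts in the nucleus on transposon chromatin. Helicases, a nuclease and Tudor domain proteins make the piRNAs and load them. The pathway is best known from germ cells and the somatic cells around them, and the head of the adult fly holds no gonad.

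The number of probe sets above log2 4 ran from 8729 to 9001 per array, and paraquat plus nicotine array 1 correlated least with the rest (mean r = 0.914, against 0.965 at most). The neuron, photoreceptor, glia and fat body markers that had probe sets all lay at or above log2 4 on every array, so the labelled tissue was found in its markers. The drop in signal from the 3' end to the middle of the control transcripts, a sign of RNA length, was largest on paraquat plus nicotine array 1 (5.27 log2) and smallest on plain food array 3 (1.93 log2). The number of arrays limits the precision, and the sources used here do not say whether the flies of a group were kept in separate vials, so p-values measure the spread between these pools.

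The 10 genes had 11 probe sets, of which 10 named a single gene and 1 named vas together with wwk. A probe set was tested where it reached log2 4 on at least 2 arrays, and 5 did so: aub, Ote, spn-E, armi and squ. spn-E and Ote reached log2 4 on paraquat-fed arrays only, so passing that filter already required them to differ. Of the 6 other probe sets, 5 stayed below log2 4 on every array and the vas probe set of its own passed it on 1. Just inside the filter stood spn-E, above log2 4 on 4 arrays, and just outside it stood vas, above it on 1 array, and krimp, with 3.83 as its highest value.

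**Figure D1:**
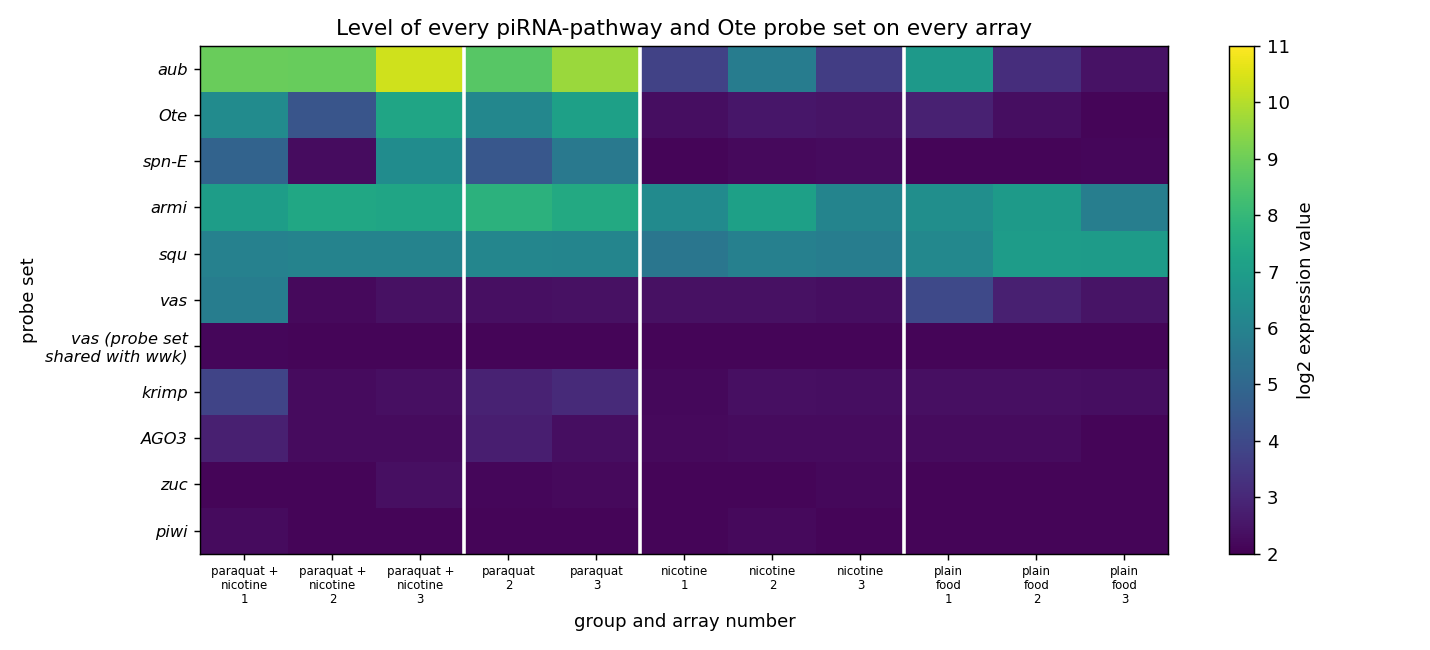
Level of each of the 11 probe sets (rows) on each of the 11 arrays (columns, grouped by exposure), as deposited log2 values in colour. aub is bright on all 5 paraquat-fed arrays, armi and squ stay above log2 4 throughout, and piwi, zuc and AGO3 stay near the lowest value of the table, 2.11.

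The Argonaute gene aub, which encodes the cytoplasmic Piwi protein Aubergine, was above log2 8 on every paraquat-fed array. Its log2 values were 8.96, 8.92 and 10.34 with paraquat plus nicotine and 8.67 and 9.64 with paraquat, against 3.77, 5.77 and 3.62 with nicotine and 6.88, 3.16 and 2.43 on plain food. All 5 paraquat-fed arrays lay above all 6 others, and the arrays without paraquat were spread widely, with 2 of them above log2 4. Group means were 9.41 ± 0.81 (SD, n = 3) with both agents, 9.15 ± 0.68 (n = 2) with paraquat, 4.39 ± 1.20 (n = 3) with nicotine and 4.16 ± 2.39 (n = 3) on plain food. In that order the means of the paraquat plus nicotine and the paraquat group were closer than their spread, and so were those of the nicotine and the plain food group. The difference was 5.02 ± 1.07 log2 (SE) between paraquat plus nicotine and nicotine, 5.00 ± 1.20 between paraquat and plain food, and 5.01 ± 0.80 averaged over both, which is 32.2-fold. Of the 6 arrays without paraquat 4 were below log2 4, and with values below log2 4 set to log2 4 the averaged difference was 4.51 log2. Without plain food array 1 it was 5.69 log2. In bulk heads, more cells with a transcript and more transcript per cell cannot be told apart.

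The other Argonaute genes of the clade did not share this level. piwi, the nuclear member, lay between 2.11 and 2.25 on the paraquat-fed arrays and between 2.11 and 2.23 on the others, close to the lowest value of the table. AGO3, the partner of Aub in the cutting cycle, lay between 2.25 and 2.78 on the paraquat-fed arrays and between 2.11 and 2.27 on the others. Neither reached log2 4 on any array, so a change below the range of these probe sets would not be seen.

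The gene order of RefSeq Release 6 places aub close to piwi, with 2 genes between them, CG12253 and TTLL4A, and TTLL4A overlaps aub. These neighbours were looked up after the levels of aub had been seen. TTLL4A, a gene of the tubulin tyrosine ligase-like family, lay between 9.45 and 10.02 on paraquat-fed arrays and between 9.46 and 10.19 on the others, a difference of -0.10 ± 0.18 log2 (limma adjusted p = 0.835). CG12253 differed by -0.17 ± 0.26 log2 (limma adjusted p = 0.817). On the other side of aub, the C-type lectin gene lectin-33A was above log2 4 on 3 of the 5 paraquat-fed arrays and on 0 of the other 6, so it passed the filter through paraquat-fed arrays only and is given without a test. It read 2.28, 5.21 and 6.45 with paraquat plus nicotine and 2.26 and 4.38 with paraquat, against 2.14, 2.15 and 2.23 with nicotine and 2.27 on each plain food array.

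**Figure D2:**
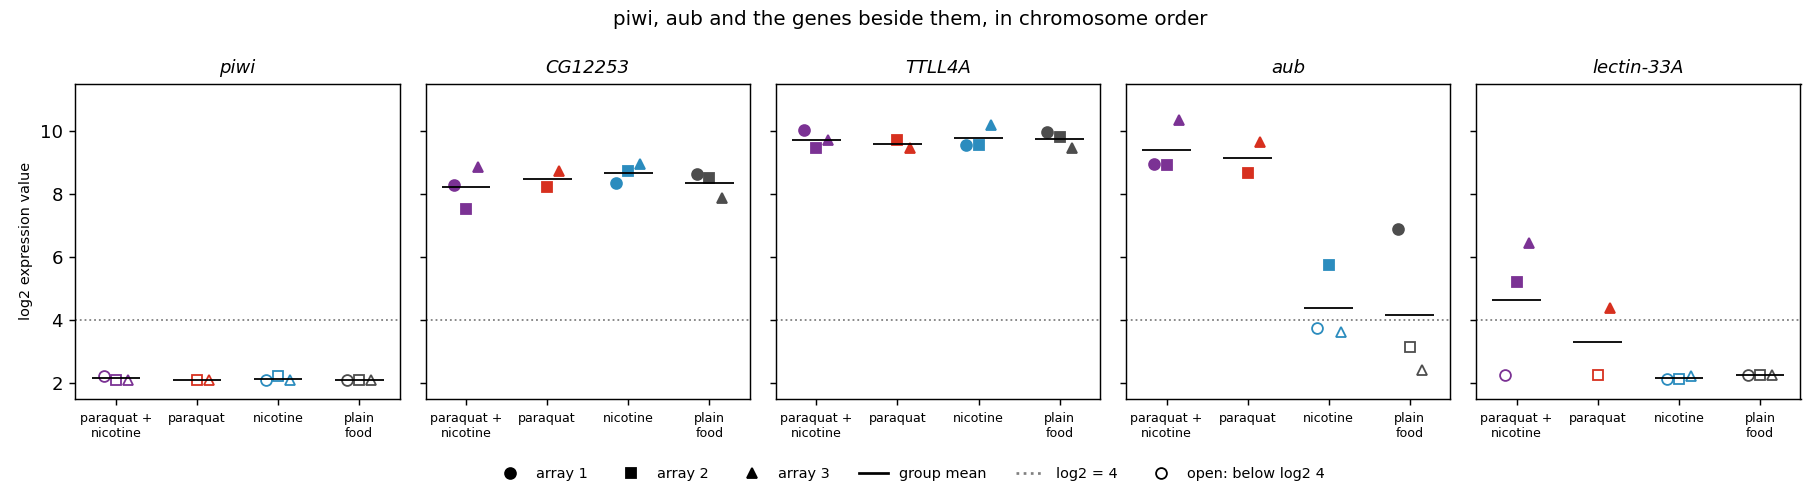
Deposited log2 values (y axis) of piwi, CG12253, TTLL4A, aub and lectin-33A, 1 panel each in chromosome order, for the 4 exposure groups (x axis). Points are arrays, open where below log2 4, and lines are group means. aub separates the paraquat-fed arrays (8.67 to 10.34) from the rest (2.43 to 6.88), while TTLL4A and CG12253 overlap and piwi stays between 2.11 and 2.25.

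Of the factors that make piRNAs, armi lay above log2 4 on every array, spn-E on 4 paraquat-fed arrays only, and zuc on none. armi encodes the RNA helicase Armitage, which hands precursor transcripts to the nuclease Zucchini. Its log2 values were 7.0, 7.35 and 7.29 with paraquat plus nicotine and 7.77 and 7.48 with paraquat, against 6.30, 7.12 and 6.05 with nicotine and 6.44, 6.90 and 5.85 on plain food. The paraquat-fed arrays were mostly higher, but nicotine array 2 lay above paraquat plus nicotine array 1. The order of group means was paraquat (7.62 ± 0.21, SD, n = 2), paraquat plus nicotine (7.21 ± 0.19, n = 3), nicotine (6.49 ± 0.56, n = 3) and plain food (6.40 ± 0.52, n = 3), and the means of nicotine and plain food lay closer than their spread. The difference was 0.72 ± 0.32 log2 with nicotine, 1.22 ± 0.36 without it and 0.97 ± 0.24 averaged, or 1.96-fold.

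spn-E encodes the helicase Spindle-E of the nuage. Its log2 values were 4.85, 2.29 and 6.38 with paraquat plus nicotine and 4.44 and 5.63 with paraquat, against 2.12, 2.21 and 2.27 with nicotine and 2.13, 2.13 and 2.15 on plain food. The groups do not overlap, but paraquat plus nicotine array 2 was at the low end, at 2.29 against 2.27 on the highest array without paraquat. Measured against log2 4, the level chosen for the filter, spn-E was at least 1.71-fold higher with paraquat averaged over both feeding backgrounds. The fitted difference was 2.60 ± 0.61 log2. With every value below log2 4 set to log2 4 that difference was 1.06 log2.

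The nuclease gene zuc lay between 2.12 and 2.38 on paraquat-fed arrays and between 2.11 and 2.19 on the others. krimp, whose Tudor domain protein Krimper brings Aub and AGO3 together, lay between 2.27 and 3.83 on paraquat-fed arrays and between 2.20 and 2.37 on the others, with its highest value on paraquat plus nicotine array 1. No array carried either gene above log2 4.

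squ, which encodes the nuage protein Squash, had its highest values on plain food. Its log2 values were 5.95, 6.03 and 6.02 with paraquat plus nicotine and 6.13 and 6.10 with paraquat, against 5.53, 5.92 and 5.80 with nicotine and 6.19, 6.99 and 6.94 on plain food. The 3 plain food arrays lay above all others, and the 3 nicotine arrays below all others. Group means were 6.00 ± 0.05 (SD, n = 3) with both agents, 6.12 ± 0.03 (n = 2) with paraquat, 5.75 ± 0.20 (n = 3) with nicotine and 6.70 ± 0.45 (n = 3) on plain food. The paraquat difference was 0.25 ± 0.22 log2 on nicotine and -0.59 ± 0.25 log2 without it. squ overlaps grp, a checkpoint kinase gene, whose 3 probe sets differed by between -0.00106 and 0.0856 log2 with paraquat (limma adjusted p from 0.955 to 1).

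vas, which encodes the germ cell helicase Vasa, was near the bottom of the range in almost every pool. Its own probe set read 5.81, 2.24 and 2.40 with paraquat plus nicotine and 2.38 and 2.39 with paraquat, against 2.42, 2.40 and 2.33 with nicotine and 3.98, 2.81 and 2.49 on plain food. The high value was paraquat plus nicotine array 1, and plain food array 1 came next, just under log2 4. The probe set shared with wwk stayed between 2.11 and 2.15 on every array.

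Ote encodes Otefin, a LEM domain protein of the inner nuclear membrane that germline stem cells need for their maintenance. Its log2 values were 6.34, 4.37 and 7.29 with paraquat plus nicotine and 6.17 and 7.11 with paraquat, against 2.33, 2.54 and 2.48 with nicotine and 2.83, 2.33 and 2.13 on plain food. All 5 paraquat-fed arrays lay above log2 4 and all 6 others below log2 3, and paraquat plus nicotine array 2 was again the lowest of the paraquat-fed arrays. Group means were 6.00 ± 1.49 (SD, n = 3) with both agents and 6.64 ± 0.66 (n = 2) with paraquat, against 2.45 ± 0.11 (n = 3) with nicotine and 2.43 ± 0.36 (n = 3) on plain food. Ote was at least 4.0-fold higher with paraquat plus nicotine than with nicotine, at least 6.23-fold higher with paraquat than on plain food, and at least 4.99-fold higher averaged over both, where the fitted difference was 3.88 ± 0.46 log2. With values below log2 4 set to log2 4 that difference was 2.32 log2.

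**Figure D3:**
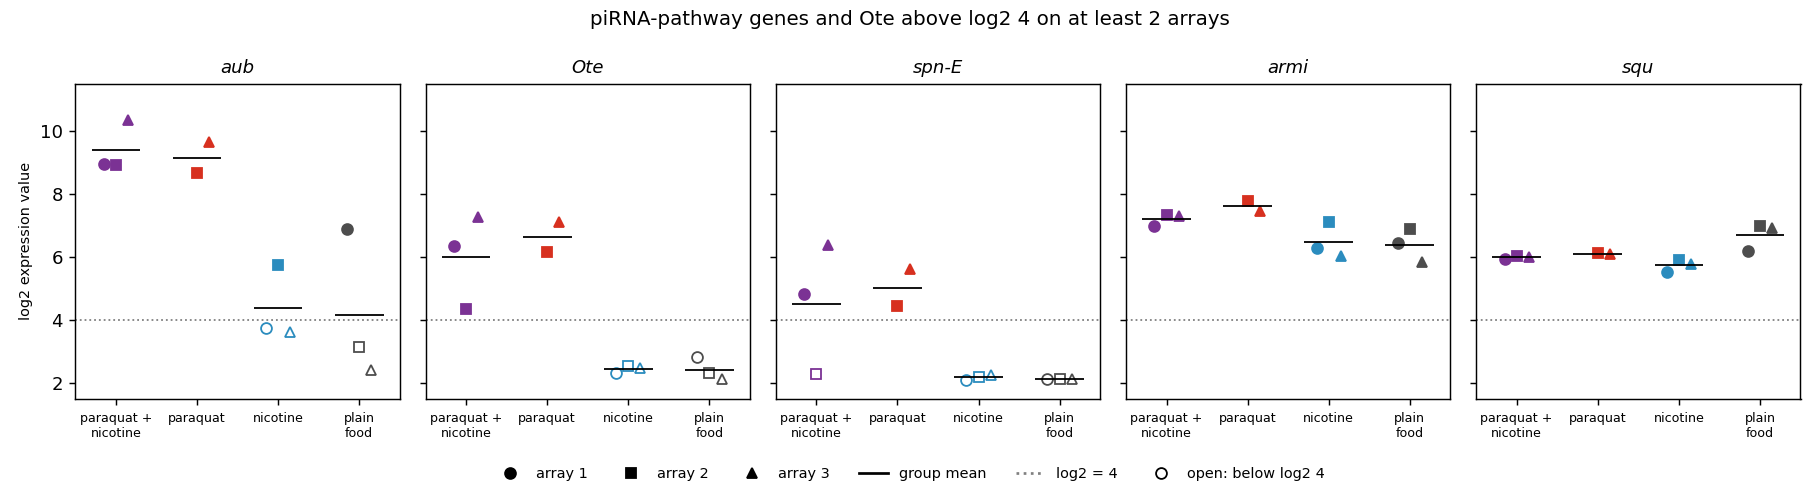
Deposited log2 values (y axis) of aub, Ote, spn-E, armi and squ, 1 panel each, in the 4 exposure groups (x axis). Points are arrays, open where below log2 4 (dotted line), and horizontal lines are group means. Paraquat-fed arrays lie above the rest for aub, Ote and spn-E, where for spn-E the gap is 2.29 on paraquat plus nicotine array 2 against 2.27, both below log2 4. armi overlaps, and squ is highest on plain food (6.70 ± 0.45, SD, n = 3).

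In the limma fit over all probe sets, 336 of 9104 (3.69%) passed an adjusted p of 0.05 for paraquat averaged over both feeding backgrounds, 267 of them (2.93%) higher and 69 (0.758%) lower. Of the 5 tested members, aub and Ote were among those higher. For paraquat on nicotine 41 probe sets passed (0.45%), 36 higher (0.395%) and 5 lower (0.0549%), and for paraquat without nicotine 31 (0.341%), 27 higher (0.297%) and 4 lower (0.0439%), with Ote among those higher in both. Because aub and Ote were picked on that contrast, nothing is read from these shares. Every paraquat-fed array lay above every other array for 380 of the 9104 probe sets (4.17%), and aub, spn-E (by the gap of 2.29 against 2.27, below log2 4) and Ote were among them. Without paraquat array 3 aub was not among the calls for the average, with a difference of 4.77 log2.

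Paraquat plus nicotine array 2 gave the lowest paraquat-fed value for spn-E and Ote. That array was also the lowest of the paraquat-fed arrays for 159 of the 267 probe sets called higher (59.6%), and array 1 of the same group was the lowest for 81 (30.3%). The low values of spn-E and Ote on that array were therefore shared with most of the probe sets that were higher with paraquat.

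Nicotine, averaged over flies with and without paraquat, passed the test for 0 of 9104 probe sets (0%) in limma, with 336 at an unadjusted p below 0.05. For aub the nicotine difference was 0.24 ± 0.80 log2 (limma adjusted p = 0.946), with a 95% interval from -1.56 to 2.04. It was -0.16 ± 0.24 for armi (limma adjusted p = 0.881). For Ote it was -0.31 ± 0.46 log2 and for spn-E -0.23 ± 0.61, both given without a test. These 2 genes lay below log2 4 on every array without paraquat, so a nicotine difference there would not be seen. On this average squ was lower with nicotine by 1.45-fold, a difference of -0.54 ± 0.17 log2. Its unadjusted limma p was 0.00988, and it did not pass after adjustment (0.833). The gap lay mostly between flies without paraquat. Group means of squ were 5.75 with nicotine against 6.70 on plain food, and 6.00 with both agents against 6.12 with paraquat. The interval of aub allows a nicotine effect of several-fold in either direction, so these arrays do not show that its level is alike with and without nicotine.

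Whether the paraquat difference was larger or smaller on nicotine was tested as the interaction, which passed for 0 of 9104 probe sets (0%) in limma, with 112 at an unadjusted p below 0.05. The interaction was 0.03 ± 1.60 log2 for aub, with a 95% interval from -3.57 to 3.62. It was -0.50 ± 0.49 log2 for armi, at a limma adjusted p of 1. For Ote it was -0.66 ± 0.92 log2 and for spn-E -0.59 ± 1.22, both given without a test. These genes lay below log2 4 on every array without paraquat. Their values therefore cannot show whether the paraquat difference changed with nicotine. For squ it was 0.84 ± 0.33 log2, with a 95% interval from 0.09 to 1.59, an unadjusted limma p of 0.0313 and an adjusted p of 1.

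Other genes of the same pathway were taken from lists. Of 22 genes of piRNA biogenesis and nuage, 19 had a probe set of their own and 11 were tested, and 1, vret, rose with paraquat and 0 fell, beside the 2.93% of all tested probe sets that were higher. vret encodes a Tudor domain protein that works with Armitage. It read 7.15, 8.15 and 8.96 with paraquat plus nicotine and 8.83 and 7.95 with paraquat, against 6.69, 7.23 and 7.27 with nicotine and 6.74, 6.78 and 6.17 on plain food. Its rise was 1.43 ± 0.33 log2 (2.69-fold, limma adjusted p = 0.0459). mael, whose protein Maelstrom acts in nuclear transposon silencing, passed the filter through paraquat-fed arrays only, like spn-E and Ote, and is given without a test. It read 6.15, 4.71 and 5.01 with paraquat plus nicotine and 4.52 and 4.97 with paraquat, against 3.73, 3.61 and 3.82 with nicotine and 3.98, 3.97 and 2.56 on plain food, at least 2.03-fold higher with paraquat averaged over both backgrounds. The arginine methyltransferase gene csul (0.47 ± 0.16 log2, limma adjusted p = 0.146) and its partner vls (0.29 ± 0.13 log2, limma adjusted p = 0.289) did not pass.

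The 8 genes of that list that were not tested, among them shu, tej, qin, Hen1 and fs(1)Yb, stayed below log2 4 on every array. tapas, Gasz, papi, mino, tud, csul, vls, Nbr and me31B lay above log2 7 on every array. The median paraquat difference of the 11 tested genes was 0.21 log2, beside -0.01 over all tested probe sets. Of the 11, 10 were above 0 (90.9%), beside 49% of all tested probe sets. The median and this share both count mael, which passed the filter through paraquat-fed arrays only. That filter favours a value above 0 for mael, so both are given as a description.

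Of 23 genes of piRNA cluster transcription and nuclear silencing, 16 were tested and 1, Nxt1, rose with paraquat, while 0 fell, beside 2.93% of all tested probe sets higher. The median difference was 0.18 log2, and 11 of the 16 were above 0 (68.8%), beside 49% of all tested probe sets. Nxt1 is an RNA export factor that serves general messenger RNA export and also binds Nxf2 in the nuclear silencing complex. It read 11.63, 10.62 and 12.12 with paraquat plus nicotine and 11.34 and 11.69 with paraquat, against 9.75, 9.83 and 10.06 with nicotine and 9.63, 9.25 and 8.92 on plain food. The 2 sets of arrays did not overlap, and the rise was 1.91 ± 0.26 log2 (3.76-fold, limma adjusted p = 0.00617). Its partner gene nxf2 differed by 0.71 ± 0.31 log2 (limma adjusted p = 0.27) and Hel25E, a helicase gene of RNA export, by 0.21 ± 0.11 log2 (limma adjusted p = 0.383). Lsd-1, which is in this list by its symbol, is in the fly the gene of a lipid droplet protein, and it differed by -1.55 ± 0.56 log2 (limma adjusted p = 0.184). The germline cluster genes rhi, del, cuff and moon stayed below log2 4 on every array.

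Of 11 other Argonaute and small RNA genes, 8 had a probe set of their own and were tested. Among these 1, Dcr-2, rose, with 0 lower, beside 2.93% of all tested probe sets higher. AGO1, AGO2 and Dcr-1 had no probe set of their own, so this list gives no reading of an Argonaute gene. The median difference was 0.20 log2. Dcr-2 encodes the Dicer of the siRNA pathway. It read 8.37, 8.56 and 8.91 with paraquat plus nicotine and 8.73 and 8.89 with paraquat, against 7.45, 8.04 and 6.91 with nicotine and 8.04, 7.82 and 8.41 on plain food. The highest plain food array lay above the lowest paraquat-fed array, and the rise was 0.94 ± 0.22 log2 (1.91-fold, limma adjusted p = 0.0478). The exportin gene Ranbp21 (0.80 ± 0.20 log2, limma adjusted p = 0.0663) and the microRNA processing genes pasha (0.56 ± 0.22, limma adjusted p = 0.221) and drosha (0.35 ± 0.22, limma adjusted p = 0.471) did not pass.

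A list of 15 nuclear lamina, LEM domain, nuclear pore and other nuclear envelope genes was read beside Ote. Of these 11 were tested and 2 rose, with 0 lower, beside 2.93% of all tested probe sets higher. The median difference was 0.24 log2. Both genes that rose encode proteins of the nuclear pore, and no lamina or LEM domain gene of the list passed. The lamin genes Lam and LamC had no probe set of their own and were not analysed. The gene that encodes Nup98 and Nup96 rose by 1.30 ± 0.26 log2 (2.47-fold, limma adjusted p = 0.0257) and Nup50 by 0.53 ± 0.11 log2 (1.45-fold, limma adjusted p = 0.0348). The LEM domain gene bocks differed by 0.95 ± 0.26 log2 (limma adjusted p = 0.0871) and the pore gene Nup107 by 0.64 ± 0.20 (limma adjusted p = 0.116). The LEM domain gene MAN1 and baf, whose protein binds LEM domains, lay above log2 9 on every array.

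In these lists 0 genes passed in limma for nicotine, for the interaction or for paraquat in a single background. At an unadjusted limma p below 0.05 each list had 0 to 3 genes, mael counted, for a single paraquat contrast. It had 0 or 1 for nicotine and 0 for the interaction. The calls of vret, Dcr-2, Nup50 and the gene of Nup98 and Nup96 stood close to the threshold and were each lost in at least 10 of the 22 alternatives. Of the 11 single left-out arrays, vret kept its call only without paraquat plus nicotine array 1, Dcr-2 only without that array or nicotine array 2, and Nup50 only without paraquat plus nicotine array 2. The gene of Nup98 and Nup96 lost its call without paraquat plus nicotine array 3, either paraquat array, nicotine array 1 or plain food arrays 2 or 3. Over these left-out arrays the difference stayed between 1.21 and 1.66 log2 for vret, 0.80 and 1.08 for Dcr-2, 0.48 and 0.57 for Nup50 and 1.14 and 1.45 for the gene of Nup98 and Nup96. Nxt1 lost its call in 1 alternative, without paraquat array 3 (limma adjusted p = 0.0542).

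**Figure D4:**
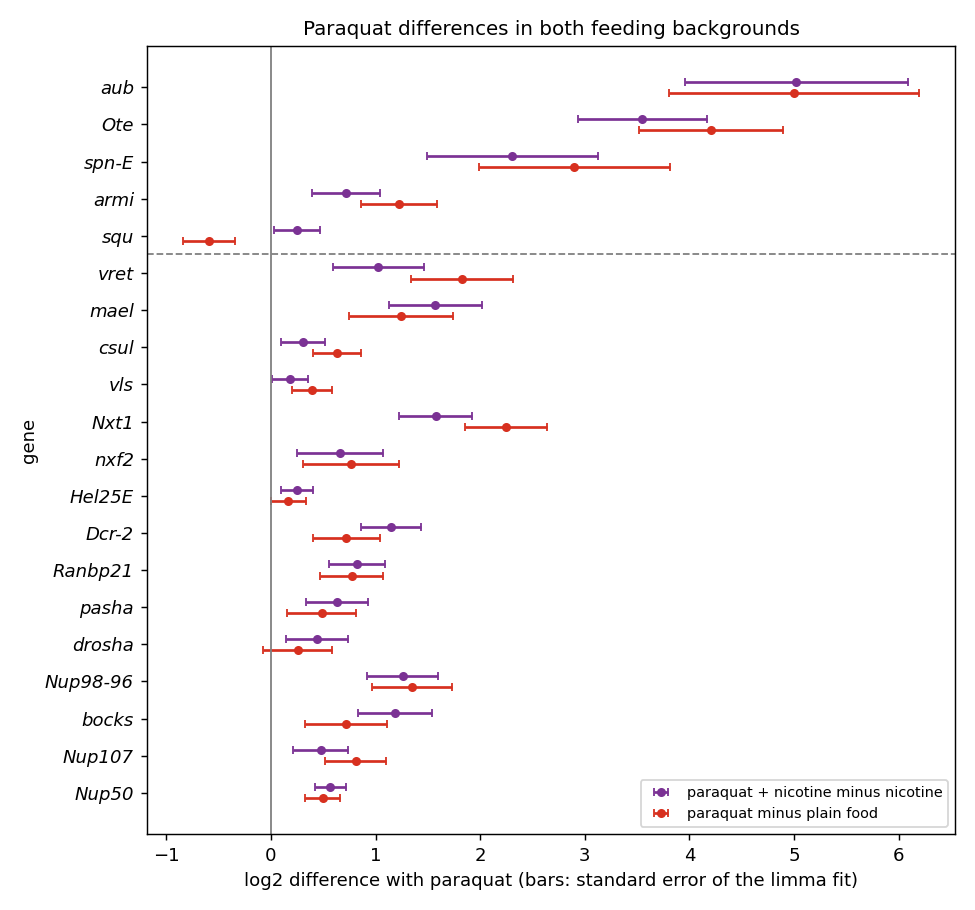
Log2 difference with paraquat (x axis; bars are standard errors of the limma fit) on nicotine (purple) and without nicotine (red), for the 5 tested members above the dashed line and for other pathway and nuclear envelope genes below it. aub is near 5.0 in both, Ote and spn-E follow, armi and Nxt1 are higher in both, and squ lies on either side of 0.

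Of 46 germline and ovary genes, 39 had a probe set of their own and 12 were tested, of which 0 rose and 0 fell with paraquat in limma, with 0 at an unadjusted p below 0.05, beside 2.93% of all tested probe sets higher and 0.758% lower. Their median difference was -0.04 log2. The recombination gene okr differed by 0.40 ± 0.19 log2 (limma adjusted p = 0.323) and the germ cell formation gene gcl by -0.36 ± 0.18 (limma adjusted p = 0.349). The differentiation gene bam differed by 0.10 ± 0.11 (limma adjusted p = 0.709) and the eggshell gene Vm32E by -0.39 ± 0.44 (limma adjusted p = 0.712). bam read the same value, 4.82, on all 3 plain food arrays and lay between 4.51 and 4.95 on all 11, so a change in it might not be seen.

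Markers of the ovary were read beside vas and the other members. Of the 10 listed germline markers 8 had a probe set, and zpg, yl, exu and swa were below log2 4 on every array. In contrast, orb lay between 7.35 and 9.34 on all 11 arrays, highest on paraquat plus nicotine array 1. bam was also above log2 4 on all 11, and otu on 4. Among the 8 markers orb was the highest on every array, so it weighs most in their summed signal (linear scale). That sum ranged from 285 to 920 with paraquat plus nicotine and from 243 to 307 with paraquat. It ranged from 330 to 593 with nicotine and from 223 to 423 on plain food. The oocyte gene osk, which specifies the germ plasm, was at 7.65 on paraquat plus nicotine array 1 and 7.98 on nicotine array 1, and at most 3.54 on the other 9. The same paraquat plus nicotine array carried dhd, an egg thioredoxin gene, at 5.69 and vas at 5.81. Nicotine array 1 carried the vitelline membrane genes Vm26Aa at 8.60 and Vm34Ca at 6.79, which lay at or below 2.39 elsewhere. Of the 14 follicle cell and eggshell markers with a probe set, 10 were below log2 4 on every array. Vm32E, of the same list, lay between 5.87 and 7.94 on all 11 arrays.

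On nicotine array 1 aub was at 3.77, Ote at 2.33 and spn-E at 2.12, and on the 4 paraquat-fed arrays other than paraquat plus nicotine array 1, aub lay between 8.67 and 10.34 while osk was at most 3.54. Without paraquat plus nicotine array 1 and nicotine array 1 together, a check chosen after their values were seen, the paraquat difference averaged over both backgrounds was 4.97 log2 for aub, 3.76 for Ote, 2.50 for spn-E and 0.98 for armi. aub was not among the calls there, in a comparison of 9 arrays. The part of ovary transcripts in the differences of aub, Ote, spn-E and armi was not tested.

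**Figure D5:**
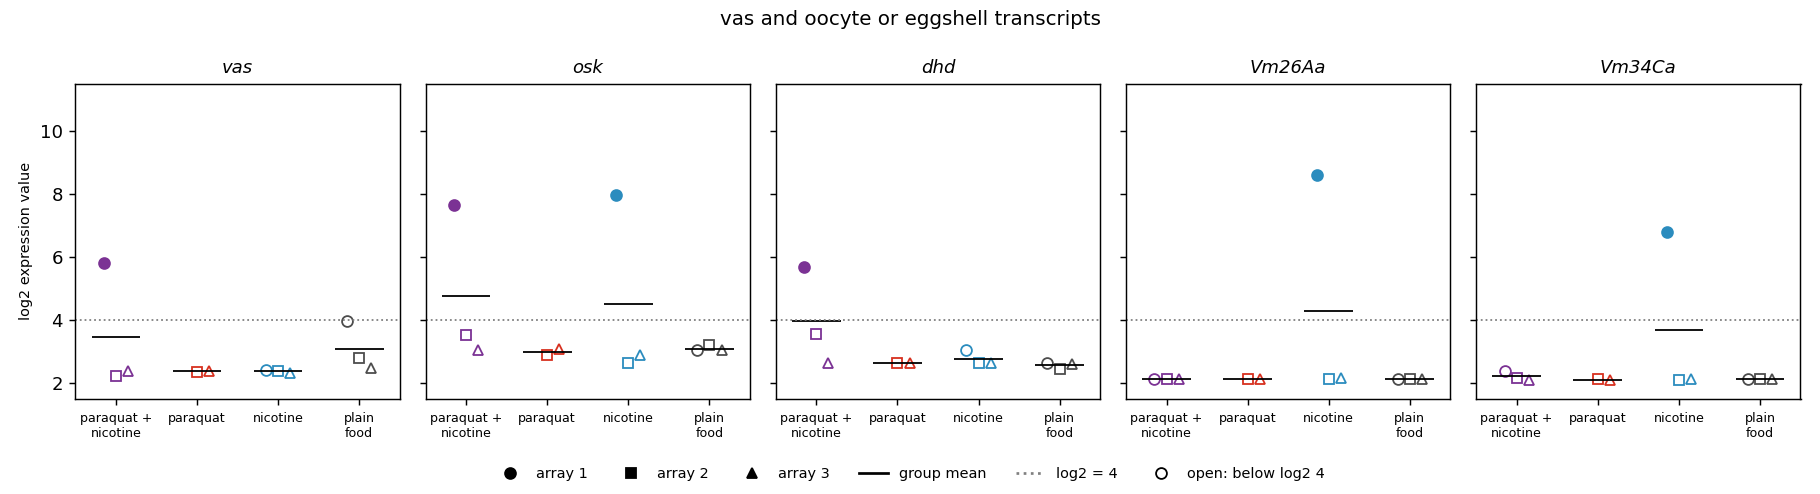
Deposited log2 values (y axis) of vas, the oocyte genes osk and dhd and the eggshell genes Vm26Aa and Vm34Ca, 1 panel each, in the 4 exposure groups (x axis). Points are arrays, open where below log2 4, and lines are group means. The high values are single arrays, paraquat plus nicotine array 1 (vas 5.81, osk 7.65, dhd 5.69) and nicotine array 1 (osk 7.98, Vm26Aa 8.60, Vm34Ca 6.79).

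The summed markers of neurons and of fat body were lower on most paraquat-fed arrays. The summed linear signal of 5 neuron markers, all detected on every array, ranged from 5211 to 9202 with paraquat plus nicotine and from 7729 to 9581 with paraquat, against 9159 to 13014 with nicotine and 10824 to 20013 on plain food. That of 5 fat body markers ranged from 132311 to 230188 with paraquat plus nicotine and from 168805 to 172258 with paraquat, against 223102 to 242644 with nicotine and 227652 to 253792 on plain food. The neuron sum was highest on plain food array 3 and lowest on paraquat plus nicotine array 1. Those arrays had the smallest (1.93 log2) and the largest (5.27 log2) drop from the 3' end to the middle. Sums of photoreceptor, glia, haemocyte and muscle markers overlapped between paraquat-fed and other arrays, as those of neurons and fat body also did. The part of these sums in the differences of aub, Ote, spn-E and armi was not tested. With the 3' minus middle signal drop of each array as a covariate, the averaged differences were 4.55 log2 for aub, 3.44 for Ote, 2.13 for spn-E and 0.97 for armi.

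The probe sets whose levels over the 11 arrays were most like those of aub and of Ote were ranked by Pearson correlation among 7799 others that name 1 gene and were tested. All 11 arrays share the split by paraquat, so a gene that differs with paraquat scores high on this measure. For aub they were Spg7 (r = 0.98), a mitochondrial protease gene, the metallothionein gene MtnA (0.97), the glutathione transferase gene GstE9 (0.97), the ribonucleotide reductase gene RnrL (0.97) and the mitochondrial ATPase gene bor (0.96). Among the members Ote stood at rank 56 (r = 0.91), armi at 323 (0.80), spn-E at 352 (0.79) and squ at 5999 (-0.35). GstE9 was higher with paraquat by 3.46 ± 0.41 log2 (11-fold) and MtnA by 0.41 ± 0.10 log2. Both were picked by their likeness to aub on these same arrays, so they are given without a test.

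For Ote they were Ssrp, a gene of the FACT chromatin complex (r = 0.99), CG33468 (0.99), the phospholipase D family gene Pld3 (0.99), the replication factor C subunit gene RfC4 (0.99) and the cytochrome P450 gene Cyp12c1 (0.98). spn-E stood at rank 44 (r = 0.96) and aub at rank 172 (0.91), followed by armi at 648 (0.75) and squ at 5277 (-0.23). Ssrp was higher with paraquat by 1.94 ± 0.27 log2 (3.84-fold) and RfC4 by 1.89 ± 0.28 log2 (3.71-fold). They were picked by their likeness to Ote and are likewise given without a test.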

How the data were processed

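The authors deposited a log2 value per probe set and array, made with GCRMA (version not given in the sources used here), per the submitters' processing notes. GCRMA corrects for background, brings the arrays to the same quantiles and combines the probes of a set. Per the labels' protocols, RNA came from Tri Reagent and RNeasy columns and was amplified with a NuGEN kit. Coordinates are left out because no build is named.

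Of 18952 probe sets, 183 were controls, and 9104 of the rest reached log2 4 on at least 2 arrays and were tested. A limma model (version 3.58.1, R 4.3.3) with 4 group means was fitted to all 11 arrays and moderated with eBayes (7 residual and 2.48 prior degrees of freedom). Contrasts were both paraquat comparisons, their average, nicotine averaged and the interaction, with Benjamini-Hochberg adjustment over the 9104 and calls below 0.05. All tests were two-sided, and the fit was tested on simulated data. Errors after ± are standard errors unless SD is written. Where all arrays of the lower groups were below log2 4, those were set to log2 4 for the fold, written "at least".

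The members, the lists and the checks were chosen with earlier results of these data known. Named genes are all members, up to 4 tested genes of each list with the smallest p for paraquat averaged, and the 5 most correlated with aub and Ote. Symbols were brought up to date by gene identifier with RefSeq Release 6 for 7776 tested probe sets, and 24 kept the annotation's symbol. Alternatives covered the filter, prior, samples fitted, centring, array weights, replicate block, RNA quality covariates, 1 probe set per gene and each array left out.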

Additional observations from a re-analysis of the deposited data

Results flagged for a closer look

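The paraquat difference of squ had opposite signs in the 2 feeding backgrounds, 0.25 ± 0.22 log2 (SE) between paraquat plus nicotine and nicotine and -0.59 ± 0.25 log2 between paraquat and plain food. The interaction itself, the first minus the second, was 0.84 log2, with an unadjusted limma p of 0.0313 and an adjusted p of 1 over all probe sets, so it did not pass. The 3 plain food arrays, at 6.19, 6.99 and 6.94, were above the other 8, which lay between 5.53 and 6.13. The interaction was fitted for 5 members, for Ote and spn-E as a description only, and its cause was not tested.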

How the results depend on the processing

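For paraquat averaged, 336 probe sets passed, against 137 with no filter, 1627 with array weights, 203 with the 3' minus middle covariate and 102 without paraquat plus nicotine array 1 and nicotine array 1 together. With each array left out in turn the count ran from 53 (without paraquat array 3) to 586 (without paraquat plus nicotine array 2). It was 190 and 191 without plain food array 2 and paraquat array 2, and 167, 222 and 213 without nicotine arrays 1, 2 and 3. The members called were 2, against 1 with no filter and without the pair of arrays, 4 with array weights, and 1 to 3 with arrays left out. The covariate and the pair were chosen after seeing the data, as was setting values below log2 4 to log2 4. No support is read from any count of members here, since aub and Ote were picked with their paraquat difference known. spn-E and Ote also passed the filter through paraquat-fed arrays only. Paraquat without nicotine had 31 calls and 1 member, against 7 and 0 with no filter, 62 calls with a trend and robust prior, 13 and 0 with only the arrays compared, 765 and 3 with weights, 17 and 0 with the 3' minus 5' covariate, 10 and 0 with the 3' minus middle covariate, 4 and 0 without the pair, and 0 members with values set to log2 4. Leaving out arrays gave 0 to 103 calls and 0 to 2 members. Paraquat with nicotine had 41 and 1, against 9 and 0 with no filter, 2 and 0 with only the arrays compared, 312 and 2 with weights, 16 and 0 with the 3' minus middle covariate and 3 and 0 without the pair, and 12 to 242 calls and 0 to 2 members with arrays left out. Nicotine averaged and the interaction had 0 calls each, 3 each with no filter, and 0 to 22 and 0 to 21 with arrays left out.

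The replicate numbers were not taken to pair the arrays, since not every same-number pair correlated above 0.1: 9 of 15 did (range -0.07 to 0.50), against 5 of 30 pairs of different numbers (range -0.50 to 0.33). As a hint from the data only, 9 of 11 arrays correlated best with an array of their own number. With the replicate block, paraquat averaged had 359 calls, paraquat without nicotine 9 and paraquat with nicotine 32. As a description only, the members among them were 4 (aub, Ote, spn-E and armi), 0 and 0. With it vret (limma adjusted p = 0.0677) and Dcr-2 (0.083) were no longer called.

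The sign of the paraquat differences of the 5 members was the same in every alternative run, with spn-E not tested at a filter of log2 6. Small nicotine and interaction values changed sign. Those of aub and armi did not pass, and those of Ote and spn-E are given as a description. The nicotine difference of aub was -0.54 and -0.37 with the 3' minus 5' and 3' minus middle covariates and -0.060 with values set to log2 4, and ran from -0.19 to 0.92 with arrays left out. That of spn-E was 0.020 with values set to log2 4 and ran from -0.70 to 0.32, and that of Ote ran from -0.63 to 0.10. The interaction of aub was -0.25 with the block, -0.22 with the 3' minus middle covariate and -0.058 without the pair, and ran from -1.34 to 0.89. For armi it was 0.048 with array weights, for spn-E 0.041 with values set to log2 4, with arrays left out from -1.53 to 0.51, and for Ote from -1.30 to 0.16. The paraquat difference of Vm32E ran from -0.86 to 0.081. Centring each array on its median moved paraquat without nicotine by 0.11 log2. The causes were not tested.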
